A study of Mus musculus with 9 samples.

Results

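The proteasome genes examined here were the 47 rows, of 23946 genes in the deposited table, whose symbols run from Psma to Psmg and carry a subunit number, without the immunoproteasome genes Psmb8, Psmb9 and Psmb10. They were picked by a name pattern, set with earlier results of these data known, and they lie on 16 chromosomes. One of them, Psmc3ip, matches the name pattern but encodes a meiotic recombination factor and no proteasome subunit, so it was kept in the counts and described apart from the 46 others. The RNA came from mouse CD8 T cells in 3 groups of 3 libraries. The donors carried hCD2-Cre, a Cre recombinase under human CD2 control that is active in lymphocytes, and the Rosa26-lsl-GFP reporter, and were wild type (WT), Ctcf-floxed (genotype label CTCF-/-, here CTCF KO) or floxed for both Tcf1 and Lef1 (genotype label Tcf1-/-Lef1-/-, here DKO). Naive CD8 T cells, depleted of non-T, CD4+ and CD44 high cells, were stained with the division dye CTV and placed in Rag1 KO recipients, which lack B and T cells of their own, where they undergo homeostatic proliferation. After 72 h the cells positive for CTV, TCRβ, GFP and CD8 were sorted from the spleen, and the source names call them "stim CD8". The ages of the mice and whether animals were pooled are not given in the sources used here.

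The proteasome is the protease complex that unfolds and cleaves ubiquitin-tagged proteins in the cytosol and nucleus. Its barrel, the 20S core, is built of outer rings of alpha subunits, which gate the entrance, and inner rings of beta subunits, which hold the proteolytic sites. The 19S regulatory particle caps the barrel with a base of ATPases that unfold substrates and a lid that removes ubiquitin, while the 11S activators open the gate without ATP, and dedicated chaperones put the rings together. In T cells the complex degrades cyclins and signalling inhibitors during activation and division, and it cuts the peptides that are shown on MHC class I.

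Values are FPKM, which divide a gene's fragments by its transcript length and by the fragments mapped, so levels of different genes are per length. Fold changes are differences of group means of log2(FPKM + 1) with their standard error (SE), and a gene counts as called where limma gave an adjusted p under 0.05 over the 10172 tested genes, those that reached 1 FPKM in 3 or more libraries. Library values are given in the order of the deposited table's columns. Of the 47 genes, 45 were tested. The 2 below the filter were Psma8, the testis alpha subunit, whose highest library held 0.656 FPKM, and Psmb11, the beta subunit of the thymus cortex, which was listed at 0 in 7 of the 9 libraries and reached 0.0207 FPKM at most.

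The libraries had summed FPKM of 629663 to 702470, and the depth behind them is unknown. The targeted genes did not all follow the labels. Ctcf had 23.9 ± 7.705 FPKM in the libraries labelled WT, 18.3 ± 1.64 FPKM in those labelled CTCF KO, which was not called, and 35.7 ± 3.36 FPKM in DKO. Lef1 fell from 346 ± 12.4 FPKM to 90.7 ± 4.41 FPKM in DKO, while Tcf7, which encodes Tcf1, had 257 ± 6.43 FPKM in WT and was called higher in DKO, at 342 ± 11.3 FPKM; which exons were floxed is not given in the sources used here, and the FPKM of a whole gene can hold reads from outside the deleted part. The 7 T cell markers matched summed to 5426 to 5756 FPKM in WT, 5573 to 5968 in CTCF KO and 6025 to 6412 in DKO. In DKO, Cd3e, Cd3g and Cd8b1 were called higher and Cd3d and Cd8a lower, with Cd8a at 447 ± 31.2 FPKM in WT and 285 ± 6.999 FPKM in DKO. Markers of other cells also moved between groups. The 8 neutrophil markers summed to 43.5 to 56.7 FPKM in WT, 15.1 to 18.8 in CTCF KO and 0.841 to 1.56 in DKO, with Elane at 0 throughout, and the 6 that could be tested were called lower in both knockouts against WT. The 3 CD4 T cell markers summed to 1.56 to 2.04 FPKM in WT, 0.971 to 1.71 in CTCF KO and 104 to 115 in DKO; nearly all of the DKO sum was Foxp3, at 109 ± 5.84 FPKM, while Cd4 had 0.812 ± 0.0773 FPKM in WT and 0.917 ± 0.0733 FPKM in DKO and Zbtb7b was listed at 0 in DKO. The 6 NK cell markers summed to 44.0 to 64.1 FPKM in WT, 13.1 to 18.7 in CTCF KO and 635 to 765 in DKO. Of these 6, Gzma was called higher in DKO, at 709 ± 69.2 FPKM against 26.03 ± 1.63 FPKM in WT, Klre1 and Eomes were called lower, and the other 3 were not called. Among B cell markers 2 could be tested. Cd79b had 52.96 ± 1.69 FPKM in WT, 35.1 ± 1.94 FPKM in CTCF KO and 109 ± 9.39 FPKM in DKO, where it was called higher, and Cd22 was called lower in DKO, while Pax5 was listed at 0 in every library. The part of these cells in the results below was not tested, and in bulk RNA fewer cells of a type and less RNA per cell cannot be told apart.

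The proteasome genes were lower in DKO than in WT across both particles. Their summed level was 13410, 12724 and 11658 FPKM in the WT libraries, 11662, 12361 and 12236 in CTCF KO and 9421, 10531 and 9846 in DKO. Every DKO library lay below every WT and every CTCF KO library, while the WT and CTCF KO sums overlapped. The mean was 95.9% of the WT mean in CTCF KO and 78.8% in DKO. As a share of the summed FPKM of a library, the genes took 1.72% to 1.91% in WT, 1.78% to 1.82% in CTCF KO and 1.48% to 1.60% in DKO.

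**Figure D1:**
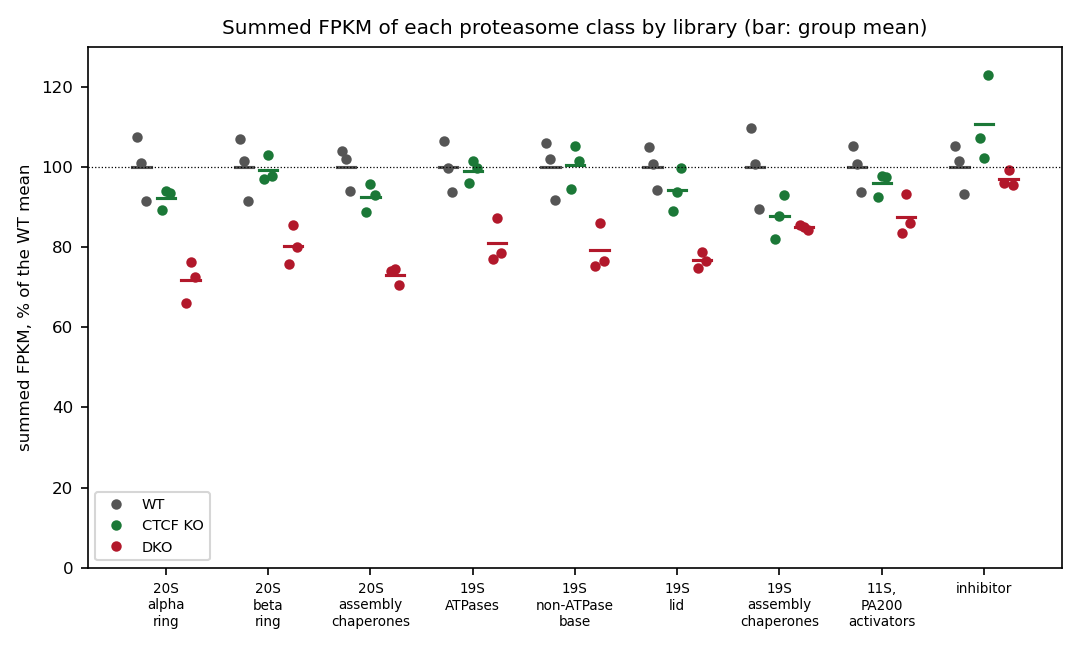
Summed FPKM of each class of proteasome genes as a percentage of its WT mean (vertical axis, from 0), with 1 point per library and a bar at the mean of the 3 libraries of WT, CTCF KO or DKO. The alpha ring stood lowest in DKO, at 71.8% of the WT mean, and the single inhibitor gene stood at 96.95%.

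Of the 45 genes tested in DKO against WT, 34 were called lower and 0 higher; over all tested genes 21.9% were called lower and 18.5% higher. At an unadjusted p under 0.05 there were 36 lower and 0 higher. Without Psmc3ip 33 of 44 were called lower, with a median log2 fold change of -0.33. The median log2 fold change of the 45 genes was -0.36, against 0.01 for all tested genes, and 44 of the 45 estimates were below 0. In 35 genes every DKO library lay below every WT library, which held for 27.3% of all tested genes. Of the 1313 tested genes with a mean of at least 100 FPKM it held for 50.9%. By the q-values of the authors' deposited table, 21 of the genes were lower at q under 0.05, against a background of 13.6%, and all 21 were among the 34. Of the 1313 genes with a mean of at least 100 FPKM, 375 were lower by these q-values.

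Other values moved with this fall, and their part in it was not tested. Of the 1313 tested genes with a mean of at least 100 FPKM, 46.0% were called lower in DKO, and their median log2 fold change was -0.19. Of the proteasome genes 37 had such a mean, and 30 of them, 81.1%, were called lower. Of the 10 housekeeping genes listed for comparison 7 were called, all lower, and their median was -0.35. The 16 mitosis genes were all called lower in DKO, with a median of -3.58. All 16 were also called lower in CTCF KO, with a median of -1.18, where 4 of the 45 proteasome genes were called and their median was -0.07.

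**Figure D2:**
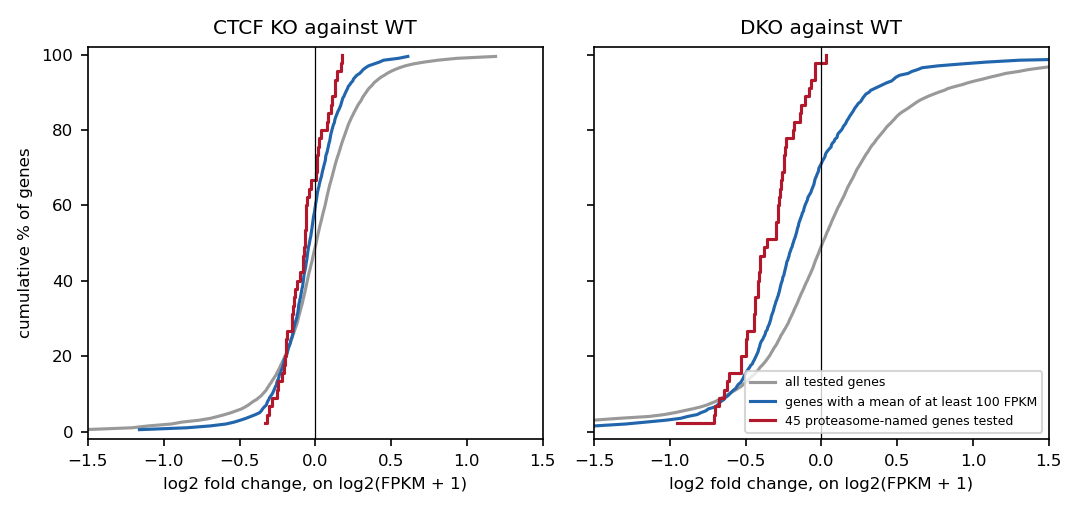
Cumulative percentage of genes (vertical axis) below a given log2 fold change (horizontal axis) in CTCF KO against WT (left) and DKO against WT (right), for all tested genes, for genes with a mean of at least 100 FPKM, and for the 45 proteasome-named genes tested. In DKO the curve of the proteasome-named genes has its median at -0.36, left of the genes with at least 100 FPKM at -0.19 and of all tested genes at 0.01.

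The libraries also differed in the level of genes with a GC-rich stretch relative to other genes. A GC index was computed for each library, after the data had been seen, as the mean log2 deviation of the 2107 tested genes with a 100-base transcript window of at least 80% GC minus that of the 8009 other genes. It was -0.55, -0.20 and 0.16 in WT, 0.05, -0.33 and -0.39 in CTCF KO and 0.40, 0.50 and 0.37 in DKO. The 3 DKO libraries had the highest index and the lowest proteasome sums, so the index and the DKO genotype cannot be told apart here. Within groups the relation was not the same in each. The library with the highest index had the lowest proteasome sum in WT and in CTCF KO, and the highest sum in DKO. Only Psma7 and Psme4 have such a window among the 45 genes. When the index was added to the model as a covariate, 16 of the 45 genes were called lower in DKO, against 13.2% of all tested genes. In that fit 39 estimates were below 0 and the median was -0.21. Because the index moves with the groups, the fit cannot separate the index from the genotype. Those 16 were 5 alpha subunits (Psma1, Psma2, Psma4, Psma5 and Psma7), the beta subunits Psmb2 and Psmb7, the ATPase Psmc1, 4 lid subunits (Psmd6, Psmd7, Psmd12 and Psmd14), the activator Psme3, the chaperones Psmg1 and Psmg2, and Psmc3ip.

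**Figure D3:**
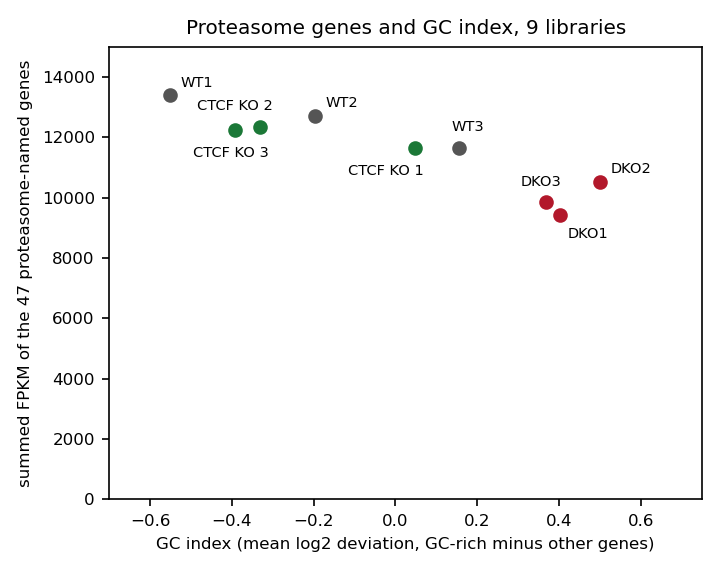
Summed FPKM of the 47 proteasome-named genes (vertical axis, from 0) against the GC index (horizontal axis, log2 units) in the 9 libraries. The DKO libraries have the highest index, 0.37 to 0.50, and the lowest sums, 9421 to 10531 FPKM.

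The promoters of the proteasome genes were read as windows of 300 bases (250 before and 50 after the gene start, RefSeq, GRCm38.p6). A window was found for 38 of the 46 proteasome genes. The core ETS motif CCGGAAG or, on the other strand, CTTCCGG was present in 36.8% of the 38 windows, in 23.0% of those of 7760 tested genes and in 9.93% of all 27025 windows. It was present in 12 of the 27 windows of genes called lower in DKO and in 2 of the 11 others, which include Psmb11, below the filter. Any link of the motif to the fall in DKO was not tested. The CCAAT box, read as CCAAT or ATTGG, was present in 34.2% of the proteasome windows, 43.5% of those of tested genes and 41.1% of all. The antioxidant response element, read as TGACNNNGC or GCNNNGTCA, was present in 15.8%, 17.0% and 14.0%. Matches of different motifs can share bases, and a match describes the sequence, not a site in use.

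The windows printed here belong to the 4 genes with the smallest adjusted p in DKO that hold the ETS letters, shown in capitals, and to the catalytic genes Psmb5 and Psmb6, with the antioxidant response element in capitals; each reads 5′ to 3′ on the gene's strand. The ETS letters begin 69 bases before the gene start in Psmg1 (chr16:95990911-95991210, minus strand), 17 in Psmd12 (chr11:107479278-107479577, plus strand), 28 in Psmc1 (chr12:100109952-100110251, plus strand) and 45 in Psmd6 (chr14:14120896-14121195, minus strand). The antioxidant response element begins 47 bases before the start of Psmb5 (chr14:54617946-54618245, minus strand) and 9 before that of Psmb6 (chr11:70525107-70525406, plus strand).
Psmg1: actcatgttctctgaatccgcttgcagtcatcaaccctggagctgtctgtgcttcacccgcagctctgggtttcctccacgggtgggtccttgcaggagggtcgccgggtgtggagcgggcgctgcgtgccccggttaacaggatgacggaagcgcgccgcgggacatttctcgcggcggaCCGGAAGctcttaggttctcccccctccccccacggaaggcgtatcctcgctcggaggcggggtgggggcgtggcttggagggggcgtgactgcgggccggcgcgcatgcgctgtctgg
Psmd12: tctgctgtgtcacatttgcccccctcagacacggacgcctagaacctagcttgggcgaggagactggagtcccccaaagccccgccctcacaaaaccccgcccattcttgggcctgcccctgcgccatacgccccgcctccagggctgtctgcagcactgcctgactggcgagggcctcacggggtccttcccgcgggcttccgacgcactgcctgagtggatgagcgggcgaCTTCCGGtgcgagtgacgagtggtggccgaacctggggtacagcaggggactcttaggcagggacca
Psmc1: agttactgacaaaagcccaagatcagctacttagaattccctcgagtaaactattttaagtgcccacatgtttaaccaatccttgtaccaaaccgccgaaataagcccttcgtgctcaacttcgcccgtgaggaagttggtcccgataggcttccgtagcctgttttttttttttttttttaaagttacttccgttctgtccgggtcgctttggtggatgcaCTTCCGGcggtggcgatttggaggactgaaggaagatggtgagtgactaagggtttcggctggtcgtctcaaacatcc
Psmd6: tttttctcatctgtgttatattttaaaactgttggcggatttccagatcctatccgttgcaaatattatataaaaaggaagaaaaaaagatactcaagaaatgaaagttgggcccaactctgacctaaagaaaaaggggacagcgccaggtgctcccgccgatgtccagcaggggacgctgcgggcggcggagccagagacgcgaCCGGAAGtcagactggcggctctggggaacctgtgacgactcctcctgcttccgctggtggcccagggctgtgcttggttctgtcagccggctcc
Psmb5: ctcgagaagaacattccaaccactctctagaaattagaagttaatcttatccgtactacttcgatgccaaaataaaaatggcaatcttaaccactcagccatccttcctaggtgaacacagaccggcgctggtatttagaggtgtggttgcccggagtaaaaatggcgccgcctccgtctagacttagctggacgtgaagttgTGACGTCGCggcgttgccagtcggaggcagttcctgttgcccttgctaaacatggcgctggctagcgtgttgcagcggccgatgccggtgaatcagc
Psmb6: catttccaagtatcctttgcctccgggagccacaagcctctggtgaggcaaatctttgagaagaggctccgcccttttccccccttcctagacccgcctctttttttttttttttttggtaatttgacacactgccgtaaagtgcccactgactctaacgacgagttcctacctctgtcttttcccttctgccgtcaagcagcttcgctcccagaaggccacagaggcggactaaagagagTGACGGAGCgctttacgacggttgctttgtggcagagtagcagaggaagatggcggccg
In Psmg1 and Psmd6 the letters stand as CCGGAAG and in Psmd12 and Psmc1 as CTTCCGG, and all 6 matches lie within 100 bases of the gene start. In DKO the log2 fold changes of these genes were -0.71 in Psmg1, -0.61 in Psmd12, -0.45 in Psmc1, -0.44 in Psmd6, -0.30 in Psmb5 and -0.24 in Psmb6.

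The alpha ring fell as a whole in DKO. All 7 of its tested genes were called lower, with a median log2 fold change of -0.50, and their sum was 71.8% of the WT mean. Over all tested genes 21.9% were called lower. Psma4 had 276, 264 and 243 FPKM in WT, 208, 198 and 223 in CTCF KO and 145, 173 and 172 in DKO. All 3 groups were separate, with DKO lowest, and the log2 fold change of DKO against WT was -0.67 ± 0.08 (SE, adjusted p = 2.4e-04). Psma1 had 467, 421 and 398 FPKM in WT, 459, 445 and 484 in CTCF KO and 242, 291 and 291 in DKO. WT and CTCF KO overlapped and DKO lay below both, with -0.64 ± 0.09 (SE, adjusted p = 3.7e-04) against WT and -0.75 ± 0.09 (SE, adjusted p = 1.7e-04) against CTCF KO. Psma6 had 486, 459.6 and 401 FPKM in WT, 430.3, 468 and 455 in CTCF KO and 315, 364 and 329 in DKO. Its DKO libraries were again lowest, with -0.42 ± 0.08 (SE, adjusted p = 0.0034) against WT. Psma2, Psma5 and Psma7 changed by -0.42 to -0.53. The smallest fall in the ring was that of Psma3, at -0.25, whose locus overlaps another listed row (3110056K07Rik), as that of Psma4 does (AY074887), so reads could be split between them. The call of Psma3 was lost without WT library 1 or 2 or DKO library 1, numbered by column.

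In the beta ring 6 of the 7 tested genes were called lower in DKO, where 21.9% of all tested genes were. The median was -0.30, and the sum was 80.4% of the WT mean. Psmb3 was at -0.14 ± 0.08 (SE, adjusted p = 0.21), with a 95% interval of -0.32 to 0.05. Psmb1 and Psmb4 were at -0.30 and -0.28. Psmb2 fell most, with 677, 619.99 and 548 FPKM in WT, 550.3, 566 and 599 in CTCF KO and 374, 421 and 396 in DKO. Its DKO libraries lay below all others, at -0.62 ± 0.08 (SE, adjusted p = 2.8e-04) against WT. The ring's 3 catalytic subunits were all called lower in DKO. Psmb5, which holds the chymotrypsin-like site and whose locus overlaps the row of Mir686, had 284, 259.98 and 226 FPKM in WT, 279, 288 and 258 in CTCF KO and 190.2, 217 and 216 in DKO. The DKO libraries lay below both other groups, which overlapped, and the change against WT was -0.30 ± 0.09 (SE, adjusted p = 0.026). Psmb6, which holds the caspase-like site, had 464, 426 and 417 FPKM in WT, 472, 525 and 471 in CTCF KO and 355, 383 and 366 in DKO. Its CTCF KO libraries were above and its DKO libraries below every WT library, with 0.17 ± 0.06 (SE, adjusted p = 0.13) for CTCF KO, which was not called, and -0.24 ± 0.06 (SE, adjusted p = 0.014) for DKO. Psmb7, which holds the trypsin-like site, had 130.01, 129.6 and 120.4 FPKM in WT, 108, 97.9 and 114 in CTCF KO and 85.3, 95.03 and 88.5 in DKO. The 3 groups were separate and in the order WT, CTCF KO, DKO, with -0.50 ± 0.07 (SE, adjusted p = 6.4e-04) for DKO. The call of Psmb5 was lost without WT library 1 or 2 or DKO library 1, and that of Psmb6 without DKO library 1.

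**Figure D4:**
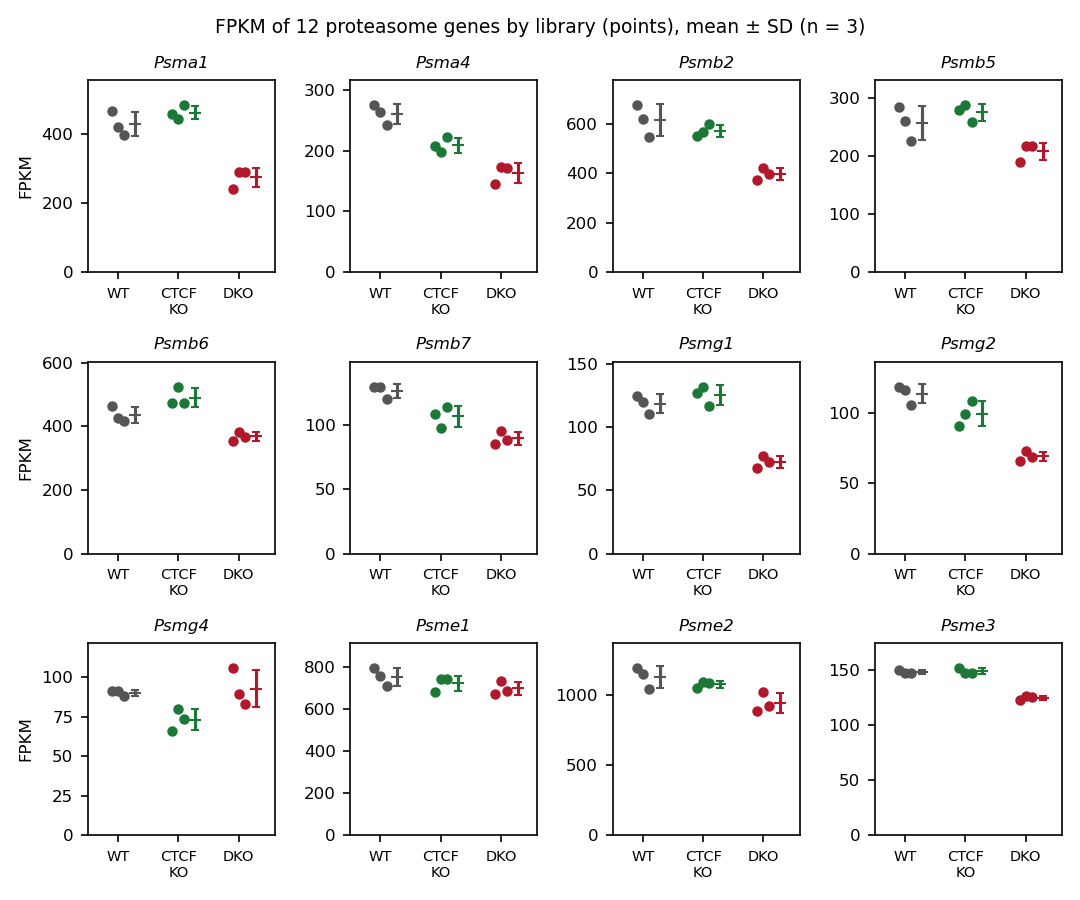
FPKM (vertical axis, from 0) of 12 proteasome genes in the 3 libraries of each group (points) with the mean ± SD (n = 3). The DKO points lie below every WT point in all panels but those of Psmg4, whose values reach 106 FPKM in DKO, and Psme1.

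Within the core the levels spread by 6.73 to 8.99 times between the highest and the lowest of the 14 tested genes. Psma2 was highest in the WT libraries and Psmb3 in all CTCF KO and DKO libraries, and Psmb7 was lowest in all 9. The 17 subunits of the regulatory particle with Psmc or Psmd names were closer to each other, with 2.59 to 3.68 times between highest and lowest. Psmc3 was highest in 8 of the 9 libraries and Psmc5 in the other one.

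The chaperones of core assembly held the largest falls of the 44 proteasome genes tested. These were Psmg1 and Psmg2, whose products form a pair that guides the alpha ring together. Psmg1 had 125, 120.1 and 110.4 FPKM in WT, 127, 132 and 117 in CTCF KO and 67.4, 77.3 and 72.1 in DKO. Psmg2 had 119, 116 and 106 FPKM in WT, 90.4, 99.5 and 108 in CTCF KO and 66.04, 72.5 and 68.6 in DKO. In both the DKO libraries lay below all others, with -0.71 ± 0.08 (SE, adjusted p = 9.4e-05) for Psmg1 and -0.71 ± 0.08 (SE, adjusted p = 1.2e-04) for Psmg2 against WT. Psmg3, whose product pairs with that of Psmg4, had 37.2, 36.9 and 31.6 FPKM in WT, 34.3, 31.05 and 34.1 in CTCF KO and 25.5, 26.8 and 28.2 in DKO and changed by -0.38 ± 0.09 (SE, adjusted p = 0.0077) in DKO. Psmg4 had 91.3, 91.4 and 88.1 FPKM in WT, 66.2, 79.9 and 73.3 in CTCF KO and 106, 89.5 and 83.1 in DKO. CTCF KO was lowest, WT and DKO overlapped, and Psmg4 was the 1 proteasome gene called higher in DKO than in CTCF KO, at 0.34 ± 0.10 (SE, adjusted p = 0.023), a call lost without CTCF KO library 1 or 3 or DKO library 1.

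The regulatory particle was lower in DKO as well. Of its 17 subunits with Psmc or Psmd names 14 were called lower in DKO, with a median of -0.41 against -0.42 for the 14 core genes. Over all tested genes 21.9% were called lower. The summed level of these 17 was 3813, 3625 and 3375 FPKM in WT, 3344, 3567 and 3606 in CTCF KO and 2733, 3009 and 2789 in DKO. The core sum was 6638, 6264 and 5658 in WT, 5752, 6077 and 5915 in CTCF KO and 4378, 4995 and 4709 in DKO. In both particles the DKO libraries lay below all others, at 78.9% of the WT mean for the regulatory particle and 75.9% for the core.

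Among the 6 ATPases, which unfold the substrate, 5 were called lower in DKO, where 21.9% of all tested genes were. Psmc1 had 288, 279.9 and 251 FPKM in WT, 243, 246 and 250.4 in CTCF KO and 198, 211 and 190.1 in DKO. The 3 groups were separate, and the change in DKO was -0.45 ± 0.06 (SE, adjusted p = 5.7e-04). Psmc2 had 205, 184 and 179 FPKM in WT, 181, 198 and 191 in CTCF KO and 130.1, 156 and 134 in DKO and changed by -0.44 ± 0.08 (SE, adjusted p = 0.0025). Psmc5 had 303, 279 and 259 FPKM in WT, 298, 304 and 316 in CTCF KO and 223, 257 and 237 in DKO, with -0.23 ± 0.07 (SE, adjusted p = 0.03) against WT and -0.36 ± 0.07 (SE, adjusted p = 0.0041) against CTCF KO. In Psmc2 and Psmc5 the WT and CTCF KO libraries overlapped and DKO lay below them. Psmc4 and Psmc6 were at -0.36 and -0.29. The ATPase not called was Psmc3, at -0.14 ± 0.08 (SE, adjusted p = 0.19), with a 95% interval of -0.33 to 0.04. The call of Psmc5 against WT was lost without WT library 1 or 2 or DKO library 1 or 3, and that of Psmc6 without WT library 1 or 2 or DKO library 2. The base also holds scaffold and receptor subunits. The scaffold gene Psmd1, whose locus overlaps that of Htr2b, had 129, 120.1 and 104 FPKM in WT, 98.9, 101 and 109 in CTCF KO and 72.6, 86.9 and 84.04 in DKO, a change of -0.53 ± 0.10 (SE, adjusted p = 0.0021). Psmd2, the scaffold that also docks ubiquitin-like domains, had 291, 278 and 233 FPKM in WT, 239.5, 261 and 255 in CTCF KO and 191, 214 and 198 in DKO, a change of -0.41 ± 0.09 (SE, adjusted p = 0.005). Psmd4, a ubiquitin receptor, had 254, 252 and 248 FPKM in WT, 263, 307 and 282 in CTCF KO and 216, 246 and 205 in DKO. Like Psmb6 it was above every WT library in CTCF KO and below every WT library in DKO, but neither change was called, at 0.17 ± 0.08 (SE, adjusted p = 0.2) and -0.18 ± 0.08 (SE, adjusted p = 0.095).

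In the lid 7 of the 8 genes with a Psmd name were called lower in DKO, where 21.9% of all tested genes were, with a median of -0.43. Psmd12 fell most and had 187, 171 and 158 FPKM in WT, 158, 153 and 179 in CTCF KO and 112, 110.4 and 114 in DKO. Its change was -0.61 ± 0.08 (SE, adjusted p = 2.7e-04). Psmd14, the deubiquitinase that strips ubiquitin from substrates, had 289, 285 and 267 FPKM in WT, 264, 257 and 298 in CTCF KO and 179, 206 and 216 in DKO and changed by -0.49 ± 0.08 (SE, adjusted p = 0.0014). Psmd3 had 150.4, 148 and 139.9 FPKM in WT, 144, 167 and 169.7 in CTCF KO and 107, 101 and 114 in DKO, with -0.44 ± 0.08 (SE, adjusted p = 0.0016) against WT and -0.57 ± 0.08 (SE, adjusted p = 4.1e-04) against CTCF KO. In all 3 genes DKO lay below WT and CTCF KO, which overlapped. Psmd7, the partner of Psmd14, had 153, 151 and 144 FPKM in WT, 122, 133 and 133 in CTCF KO and 112, 114 and 108 in DKO, with the groups separate and a change of -0.42 ± 0.06 (SE, adjusted p = 3.7e-04). Psmd6, Psmd13 and Psmd11 were at -0.44, -0.40 and -0.26, and in Psmd11 the libraries of DKO and WT overlapped. The gene not called was Psmd8, at -0.08 ± 0.07 (SE, adjusted p = 0.35) with a 95% interval of -0.24 to 0.07. Of the 3 chaperones of the base, Psmd10 was called lower in DKO, with 73.8, 66.6 and 62.5 FPKM in WT, 50.7, 55.5 and 53.8 in CTCF KO and 56.7, 53.7 and 56.4 in DKO and a change of -0.27 ± 0.07 (SE, adjusted p = 0.017); its CTCF KO and DKO libraries overlapped. Psmd5 and Psmd9 were not called, at -0.18 and -0.29. The call of Psmd10 in DKO was lost without WT library 1 or DKO library 2, and that of Psmd11 without WT library 1 or 2 or DKO library 1 or 3.

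**Figure D5:**
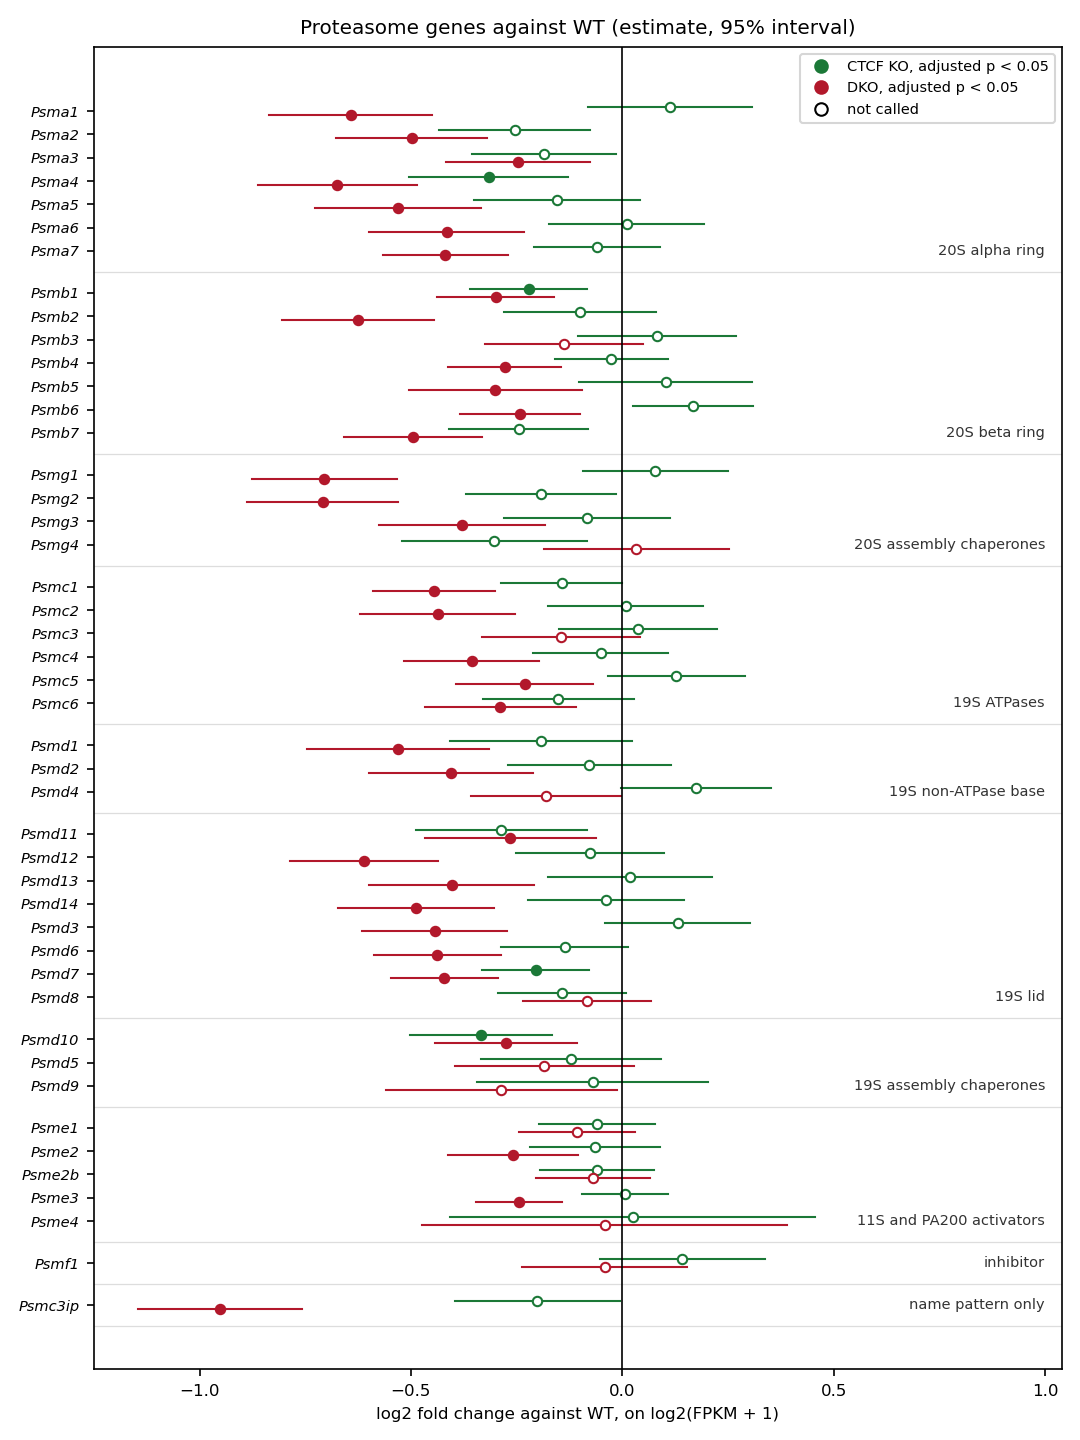
Log2 fold change against WT (horizontal axis) of the 45 proteasome-named genes tested, by class, with 95% intervals, for CTCF KO (green) and DKO (red); filled points are called. In DKO 34 points are filled, all left of 0, and in CTCF KO 4, all left of 0.

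The activators and the inhibitor had the highest class sums in DKO relative to WT, at 87.7% and 96.95% of the WT mean. Of their 6 genes 2 were called lower, where 21.9% of all tested genes were. The genes of the 11S heptamer that interferon induces had the highest levels of this class. Psme1, whose locus overlaps that of Emc9, had 796, 756 and 709 FPKM in WT, 681, 742 and 746 in CTCF KO and 674, 735 and 687 in DKO. Its 3 groups overlapped, and the change in DKO was -0.11 ± 0.06 (SE, adjusted p = 0.18). Psme2 had 1189, 1144 and 1036 FPKM in WT, 1045, 1088 and 1082 in CTCF KO and 880.3, 1020.5 and 916 in DKO, with DKO below both other groups at -0.26 ± 0.07 (SE, adjusted p = 0.015), a call lost without WT library 1 or 2 or DKO library 1. Psme2b, a near copy of Psme2 whose reads could be shared with it, was at -0.07 ± 0.06 (SE, adjusted p = 0.37). Psme3, which forms the nuclear activator, had 149.8, 147 and 148 FPKM in WT, 152, 147 and 147 in CTCF KO and 123, 126 and 126 in DKO. The DKO libraries lay in a narrow range below all others, at -0.24 ± 0.05 (SE, adjusted p = 0.0024). Psme4, which encodes the activator PA200, had 2.37, 2.08 and 2.29 FPKM in WT, 2.84, 1.94 and 2.18 in CTCF KO and 1.99, 1.52 and 3.14 in DKO, so its groups overlapped throughout. Psmf1, which encodes the inhibitor PI31, had 31.6, 30.5 and 28.02 FPKM in WT, 32.2, 30.7 and 36.96 in CTCF KO and 28.9, 29.8 and 28.7 in DKO, a change of -0.04 ± 0.09 (SE, adjusted p = 0.73) in DKO with a 95% interval of -0.24 to 0.15.

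Psmc3ip, the gene matched by name only, had 26.9, 26.97 and 26.01 FPKM in WT, 24.03, 24.3 and 20.9 in CTCF KO and 12.5, 13.7 and 13.7 in DKO. Its DKO libraries lay far below the others, with -0.95 ± 0.09 (SE, adjusted p = 3.0e-05) against WT, the largest fall among the 45. Its locus overlaps that of Mlx.

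In the libraries labelled CTCF KO the 45 proteasome-named genes had a median log2 fold change of -0.07 against WT, where that of all tested genes was 0.01. Of the 45, 4 were called lower and 0 higher, while 6.37% of all tested genes were called lower and 5.78% higher. At an unadjusted p under 0.05 limma gave 11 lower and 1 higher, and the authors' deposited q-values gave 0 lower, against 5.57% of all tested genes, and 0 higher. Of the 45 estimates 30 were below 0. The called genes were Psma4 at -0.32 ± 0.08 (SE, adjusted p = 0.039), Psmd10 at -0.33 ± 0.07 (SE, adjusted p = 0.019), Psmd7 at -0.21 ± 0.06 (SE, adjusted p = 0.044) and Psmb1 at -0.22 ± 0.06 (SE, adjusted p = 0.047). Psmb1, a beta subunit without a catalytic site of its own, had 514, 485 and 449.7 FPKM in WT, 413, 428 and 399.8 in CTCF KO and 371, 408 and 396 in DKO. In all 4 genes every CTCF KO library lay below every WT library. That order held for 12 of the 45 genes and for 14.4% of all tested genes. Of the tested genes with a mean of at least 100 FPKM it held for 24.2%. The calls depend on single libraries: 0 genes were called without CTCF KO library 1, without CTCF KO library 3, without WT library 1 or without WT library 2, without CTCF KO library 2 only 1 was, and without WT library 3 there were 4, of which 3 were among those named here.

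DKO and CTCF KO were also compared directly, which tests the difference between their changes against the shared WT libraries. Of the 45 genes 29 were called lower in DKO and 1 higher, Psmg4, where 21.8% of all tested genes were called lower and 16.2% higher. The median was -0.30. Of the 1313 tested genes with a mean of at least 100 FPKM, 536 were called lower in DKO, with a median of -0.15. The authors' deposited q-values gave 18 lower, against a background of 13.1%. By class, 11 of 14 core genes, 13 of 17 subunits of the regulatory particle, 1 of 5 activators, 0 of 3 chaperones of the base and 3 of 4 chaperones of the core were called lower. For the chaperones of the base, the estimates lay between -0.22 and 0.06. The calls of Psma2, Psmb7, Psmd1, Psmd2, Psmd7 and Psmg3 in this comparison were each lost on leaving out at least 1 library of CTCF KO or DKO. When the model held the GC index, 5 of the 45 were called lower and 0 higher, against 10.2% and 7.45% of all tested genes.

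Genes that work with the proteasome were listed from textbook roles. Of the 3 immunoproteasome subunits, which replace the catalytic ones under interferon, 2 were called lower in DKO, where 21.9% of all tested genes were. Psmb9, which replaces Psmb6, had 532, 544 and 508 FPKM in WT, 496, 522 and 491 in CTCF KO and 284, 315 and 287 in DKO and fell in DKO by 0.84 ± 0.06 (SE, adjusted p = 3.6e-06). Psmb8, which replaces Psmb5, had 1341, 1263 and 1159 FPKM in WT, 1184, 1287 and 1195 in CTCF KO and 919, 1070.3 and 1014 in DKO and fell by 0.33 ± 0.07 (SE, adjusted p = 0.0066). Psmb10, which replaces Psmb7, had 303, 286 and 298 FPKM in WT, 261, 324 and 292 in CTCF KO and 300.4, 320.4 and 295 in DKO and was not called, at 0.05 ± 0.08 (SE, adjusted p = 0.66). The ratio of Psmb9 to Psmb6 was 1.21 ± 0.066 in WT, 1.03 ± 0.030 in CTCF KO and 0.803 ± 0.019 in DKO (SD, n = 3), and its groups did not overlap. The ratio of Psmb10 to Psmb7 was 2.34 ± 0.135 in WT, 2.76 ± 0.481 in CTCF KO and 3.41 ± 0.1003 in DKO, where it was above every other library, and WT and CTCF KO overlapped. The ratio of Psmb8 to Psmb5 was 4.90 ± 0.212 in WT and 4.82 ± 0.125 in DKO, which overlapped, and 4.45 ± 0.196 in CTCF KO, whose libraries lay below all of the others.

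Of 13 tested factors that assemble, dock on or feed the proteasome, 6 were called in DKO and 4 in CTCF KO, all of them lower, and 5 were called lower and 2 higher in DKO against CTCF KO. Of all tested genes, 21.9% were called lower in DKO, 6.37% lower in CTCF KO, and 21.8% lower and 16.2% higher in DKO against CTCF KO. Pomp, the maturation factor of the core, had 473, 458 and 449 FPKM in WT, 349, 392 and 402 in CTCF KO and 286, 321 and 282 in DKO. Its 3 groups were separate, with -0.27 ± 0.07 (SE, adjusted p = 0.036) in CTCF KO and -0.63 ± 0.07 (SE, adjusted p = 1.2e-04) in DKO. Uchl5, a deubiquitinase of the regulatory particle, had 108, 91.7 and 94.3 FPKM in WT, 78.4, 72.97 and 74.3 in CTCF KO and 58.2, 45.9 and 54.5 in DKO, with -0.37 ± 0.10 (SE, adjusted p = 0.036) in CTCF KO and -0.88 ± 0.10 (SE, adjusted p = 1.1e-04) in DKO. Txnl1, a thioredoxin-like protein of the regulatory particle, changed by -0.32 ± 0.08 (SE, adjusted p = 0.035) in CTCF KO and -0.55 ± 0.08 (SE, adjusted p = 6.4e-04) in DKO. Shfm1, the smallest lid subunit, changed by -0.25 ± 0.07 (SE, adjusted p = 0.038) and -0.33 ± 0.07 (SE, adjusted p = 0.0038). The 4 calls in CTCF KO were each lost on leaving out any of at least 5 of the 6 libraries of CTCF KO and WT.

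Of 9 tested regulators of proteasome gene transcription, 2 were called higher and 1 lower in DKO, 1 higher in CTCF KO, and 1 in each direction in DKO against CTCF KO. Over all tested genes 18.5% were called higher and 21.9% lower in DKO, and 5.78% higher in CTCF KO. For DKO against CTCF KO the shares were 16.2% higher and 21.8% lower. Counts of 1 or 2 of 9 genes are too small to be read against these shares. Nfe2l1, the factor that raises proteasome genes when activity is short, had 23.4, 24.2 and 22.6 FPKM in WT, 22.3, 24.9 and 23.04 in CTCF KO and 30.5, 31.95 and 28.9 in DKO and rose in DKO by 0.36 ± 0.08 (SE, adjusted p = 0.0052). Ngly1, the glycanase that activates it, had 76.1, 72.9 and 64.4 FPKM in WT, 127, 128 and 128 in CTCF KO and 87.8, 82.9 and 86.9 in DKO and rose by 0.84 ± 0.07 (SE, adjusted p = 9.6e-05) in CTCF KO and 0.27 ± 0.07 (SE, adjusted p = 0.011) in DKO. Foxm1, a factor of mitotic genes, had 3.16, 5.81 and 9.76 FPKM in WT, 3.299, 1.03 and 2.32 in CTCF KO and 1.56, 0.992 and 1.02 in DKO and fell by 1.63 ± 0.36 (SE, adjusted p = 0.0061) in DKO.

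Of 9 tested genes of p97 and its cofactors, which extract ubiquitinated proteins for the proteasome, 3 were called higher and 1 lower in DKO, 1 lower in CTCF KO, and 3 higher in DKO against CTCF KO. Of all tested genes, 18.5% were called higher and 21.9% lower in DKO, and 6.37% lower in CTCF KO. For DKO against CTCF KO the share higher was 16.2%. Counts of 1 or 3 of 9 genes are too small to be read against these shares. Vcp, which encodes p97 itself, had 298, 287 and 254 FPKM in WT, 222, 239 and 231 in CTCF KO and 209, 218 and 209 in DKO, with -0.28 ± 0.07 (SE, adjusted p = 0.025) in CTCF KO and -0.40 ± 0.07 (SE, adjusted p = 0.0013) in DKO. The cofactor genes Ubxn1, Faf1 and Nploc4 were higher in DKO, at 0.32 ± 0.06 (SE, adjusted p = 0.0022), 2.44 ± 0.45 (SE, adjusted p = 0.0024) and 1.88 ± 0.65 (SE, adjusted p = 0.044). Faf1 was low in WT, at 1.11, 1.33 and 3.33 FPKM, and spread widely in DKO, at 10.1, 31.2 and 8.42 FPKM. The estimate for Nploc4 turned to -0.36 once the GC index was a covariate. Uba1, the main ubiquitin-activating enzyme, and Ubb, a gene of ubiquitin itself, were called lower in DKO, at -0.36 ± 0.07 (SE, adjusted p = 0.0038) and -0.17 ± 0.06 (SE, adjusted p = 0.043), and Ubb was at 0.0018 under quantile normalization. The calls of Nploc4 and Ubb in DKO and of Vcp in CTCF KO were each lost without WT library 1 or 2, among others.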

How the data were processed

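Total RNA of sorted CD8 T cells was sequenced in 9 libraries, 3 for WT, 3 for CTCF KO and 3 for DKO. Per the submitters' processing notes, FastQC, TopHat2 2.1.0 and Cuffdiff 2.2.1 were used, and the builds mm9 and mm10 are both named; the annotation, library scaling and strand setting are not given in the sources used here. The authors deposited 1 table of 23946 genes with FPKM per library, the mean FPKM of each group, and a p-value and q-value for each pair of groups; from the last of these, only q under 0.05 was used. No counts are in the table, so no counting error can be given. The start lay no more than 1000 bases from the GRCm38 start in 962 of 22463 rows with a matching symbol, so the table's positions were used only to find overlapping rows and chromosomes.

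From the FPKM, log2(FPKM + 1) was computed and the 10172 genes that reached 1 FPKM in 3 or more of the 9 libraries were fitted with limma 3.58.1 in R 4.3.3 (1 mean per group, all 9 libraries, intensity trend, two-sided moderated test), with Benjamini-Hochberg adjustment over all tested genes. Fold changes on this scale understate those of low genes. The scripts were tested on simulated data. Sums, ratios and figures used Python 3.11.15, pandas 2.3.3, numpy 2.4.6 and matplotlib 3.10.9. The largest GC share of a 100-base window was taken from the longest GENCODE transcript on GRCm38. The labels do not say whether separate animals gave the libraries of a group, and p-values then measure the spread between these libraries. DKO columns were tied to their group only, since the labels number its libraries in different ways. The 3 comparisons share libraries.

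The genes, lists, tests and alternatives were chosen with earlier results of these data known, and the adjusted p-values do not allow for that. Values in every library are given for catalytic subunits, activators, inhibitor and core chaperones and, per class and comparison, up to 2 called genes with the largest rise and 2 with the largest fall; from other lists, up to 4 called genes with the smallest adjusted p. Alternatives were other pseudocounts (0.1 and 5), filters (none, or a mean of at least 5 FPKM), scalings, weights, fits, omission of each library and, added after seeing the data, correction for GC. Paaf1 and Trac were not matched in the table. Some genes of the lists of ubiquitin with its activating enzymes and of B cell markers are not reported here, and no count or sum over those whole lists is given.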

Additional observations from a re-analysis of the deposited data

Results flagged for a closer look

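In 2 of the 45 genes tested the knockouts lay on opposite sides of WT. The share of all tested genes with this order was not computed. In Psmb6, the gene of the caspase-like site, every CTCF KO library was above and every DKO library below every WT library. The log2 fold change of DKO against CTCF KO was -0.41 ± 0.06 (SE). Psmd4, a ubiquitin receptor of the regulatory particle, showed the same order of libraries, with -0.35 ± 0.08 (SE) for DKO against CTCF KO. Both genes were picked by this order, which fixes a difference between DKO and CTCF KO in advance, so no p is given for it. In both genes the rise in CTCF KO against WT was not called, and in Psmd4 the fall in DKO against WT was not called either. With groups of 3, single libraries were not tested as outliers.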

How the results depend on the processing

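The count of proteasome genes called lower in DKO against WT was 34, where 21.9% of all tested genes were called lower. Under the other pseudocounts, filters, scalings, weights and fits it lay between 26 (quantile normalization, 20.8% of all) and 39 (array weights, 29.1%). With 1 library left out it lay between 27 and 35, beside 17.9% to 22.1% of all tested genes. With the GC index as a covariate it was 16, beside 13.2% of all tested genes. Over genes without a GC-rich window it was 33 of 43 (27.0% of all such genes), and 28 of 43 (21.2%) after centring on these. In DKO against CTCF KO the count called lower, 29, was 23 to 31 with 1 library left out and 5 with the GC covariate; the count called higher, 1, was 0 with no filter, centred on the median or with the GC covariate, and 0 to 1 with 1 library left out. In CTCF KO against WT the count called lower, 4 (6.37% of all), was 0 to 4 with 1 library left out (4.04% to 5.62%). It was 1 with no filter (1.78%) or no intensity trend (5.52%) and 0 centred on the median (4.64%). In a fit of only the groups compared it was 2 (5.36%). It was 13 with array weights, beside 11.1% of all tested genes. With the GC covariate it was 8 (8.03%), as in each fit of genes without a GC-rich window (8.78% and 9.21%). The count called higher, 0 (5.78%), was 1 under quantile normalization (6.19%), scaling to the summed FPKM (8.35%) or array weights (11.3%). Scaling to the summed FPKM moved the median of all genes in DKO against WT from 0.01 to 0.10, with 2628 genes called higher and 1739 lower in place of 1886 and 2227; 27 proteasome genes were then called lower. Reversed signs were those of Nploc4 with the GC covariate, at -0.36 in DKO against WT and -0.15 in DKO against CTCF KO, and of Ubb under quantile normalization, at 0.0018; the cause was not tested. With the replicate number as a block, CTCF KO against WT had 0 proteasome genes called lower and 0 higher, and 95 genes higher and 202 lower in all. Same-numbered libraries correlated at -0.62, 0.16 and -0.45 in their deviations from the group means, and differently numbered ones at -0.35 to 0.62. These values cannot show whether the numbers pair the libraries, because deviations within a group of 3 sum to 0 and so depend on each other. No paired analysis was possible for DKO because its columns carry no number that the labels agree on. For single proteasome genes called in DKO against WT, the call held in 571 combinations of gene and alternative and was lost in 73; in DKO against CTCF KO these were 505 and 63, and in CTCF KO against WT 42 and 38. The unknown depth limits what can be said of low genes such as Psma8, Psmb11 and Psme4.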
